A study of Mus musculus with 19 samples.

Results

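Potassium channel genes were compared between ipsilateral and contralateral retinal ganglion cells (iRGCs and cRGCs) of the embryonic mouse. They were taken as every protein-coding gene of the GRCm38 annotation whose symbol starts with Kcn, and 94 of the 47069 gene rows in the count tables met this rule. Of these 94 genes, 64 had enough reads to be tested beside 15941 tested genes in all, and 30 did not. RNA-seq was performed on GFP-positive cells sorted from dissociated C57/DBA F1 retinas at E16.5, with male and female embryos pooled, and gave 3 libraries per population. Every embryo carried the Sun1-GFP reporter, a nuclear envelope protein fused to GFP that appears only after Cre has removed a stop cassette, and the genotype label of all samples read WT. iRGCs came from Slc6a4-Cre; Sun1-GFP retinas, in which a transgene drives Cre from the serotonin transporter gene, and cRGCs from Pou4f2-Cre; Sun1-GFP retinas, in which Cre sits in the Brn3b (Pou4f2) locus and from which the ventrotemporal region had been cut away. Each population was therefore defined by its own Cre line and its own dissection, and differences that arise from either cannot be told apart from the difference between the cell types. The labels do not say how many embryos went into a library, so the p-values measure the spread between libraries that share a label. The libraries held from 28193178 to 33638083 reads assigned to genes.

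Potassium channels let potassium leave or enter the cell along its gradient and so set the resting potential, the shape of the action potential and the firing pattern of neurons. Voltage-gated channels (Kv1 to Kv4, Kv7 and the EAG, ERG and ELK group) open on depolarization, calcium- or sodium-activated channels follow the ion that accumulates during activity, and inward rectifiers and K2P leak channels act near rest. Modifier subunits form no channel on their own, and auxiliary subunits (Kcnab, Kcnip, Kcne and Kcnmb genes, with which Kcnrg was grouped) change the gating or the transport of the pore. Ganglion cells acquire voltage-gated potassium currents as they mature and become excitable, while glia rely mostly on leak and inward rectifier channels.

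The labels were first checked on the genes behind them. Slc6a4, the serotonin transporter whose regulatory sequence drives Cre in the iRGC line, was at 2.06, 33.4 and 116 CPM in iRGC libraries 1 to 3 and at 48.1, 35.4 and 30.5 CPM in the cRGC libraries (CPM, the counts scaled to a common library size with TMM factors). These ranges overlapped, and the gene was not called (log2 fold change 0.41 ± 0.93, SE, adjusted p = 0.768, edgeR). Its value turned to -1.11 without iRGC replicate 3 and was 0.98 without iRGC replicate 1, and it was not called in either case. Zic2, a transcription factor of iRGCs, was higher in iRGCs (133, 173 and 157 against 57.0, 60.2 and 65.7 CPM), and the cRGC factors Isl2 (log2 fold change -2.15), Pou4f1 (-2.28) and Pou4f2 (-1.15) were lower. All 10 ganglion cell markers were lower in iRGCs, among them Nefm, the most abundant, with a mean of 639 against 2253 CPM. Their summed level was 2412, 3235 and 5103 CPM in iRGCs against 13009, 11771 and 14198 CPM in cRGCs. Conversely, 11 of 12 progenitor markers were higher in iRGCs, led by Ccnd1 at 2844 against 509 CPM, with sums of 9182, 8283 and 7386 CPM against 1652, 2702 and 2151 CPM. Of the vascular markers, 6 of 8 endothelial genes (all but Kdr and Cldn5) and 4 of 6 mural genes (all but Anpep and Acta2) were highest in iRGC replicate 2, with Cdh5 (endothelium) at 15.2, 81.3 and 0.158 CPM in iRGCs and at 0 in cRGCs, and Rgs5 (pericytes) at 3.76, 93.8 and 2.24 CPM against at most 0.323 CPM. Photoreceptor precursor genes were higher in iRGCs for 4 of 4 tested (Otx2, 235 against 45.3 CPM), amacrine and horizontal cell genes for 5 of 8 (Tfap2b, 140 against 48.0 CPM), and glial genes for 3 of 3 (Glul, 453 against 257 CPM, with Gfap, Aqp4 and S100b below 1 CPM in every library). Markers of microglia (Csf1r, 7.27 against 0.468 CPM) and of erythroid cells (Hbb-bs, 22.0 against 0.805 CPM) were higher for 3 of 5 and 3 of 3 tested. Of the pigment epithelium (Best1, 1.03 against 2.98 CPM) none of 3 was called in the edgeR fit reported here. DESeq2 and limma voom called the pigment epithelium gene Dct higher and Best1 lower. No listed marker was at 0 in all libraries. The part of these cells in the potassium channel results was not tested, and in bulk RNA fewer cells of a type and less RNA per cell cannot be told apart.

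Potassium channel transcripts were scarcer in iRGCs. The 94 genes summed to 767, 823 and 1029 CPM in the iRGC libraries and to 2139, 1861 and 1845 CPM in the cRGC libraries, a mean of 873 ± 138 against 1948 ± 165 CPM (SD, n = 3 each). The libraries of the populations did not overlap. At an adjusted p under 0.1 (edgeR quasi-likelihood test, Benjamini-Hochberg over all tested genes), iRGCs had less of 32 of the 64 tested genes (50.0%, where 23.1% of all tested genes were called lower) and more of 10 (15.6%, against 23.3% of all tested genes called higher). With an absolute log2 fold change above 1 as well, 28 were lower (43.8%, against 11.0%) and 9 were higher (14.1%, against 12.1%). The libraries of the populations did not overlap for 49 of the 64 genes, or 76.6% (55.3% of all tested genes). The median log2 fold change was -1.07 over the tested potassium channel genes and -0.00 over all tested genes. These shares and medians describe the tested genes and not all 94, since a gene abundant in 1 population alone passes the filter on low counts. Leaving out iRGC replicate 1, in which Slc6a4 was lowest, gave 34 lower and 10 higher. Without iRGC replicate 2, the library with the highest vascular marker sums, 29 were lower and 8 higher.

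**Figure D1:**
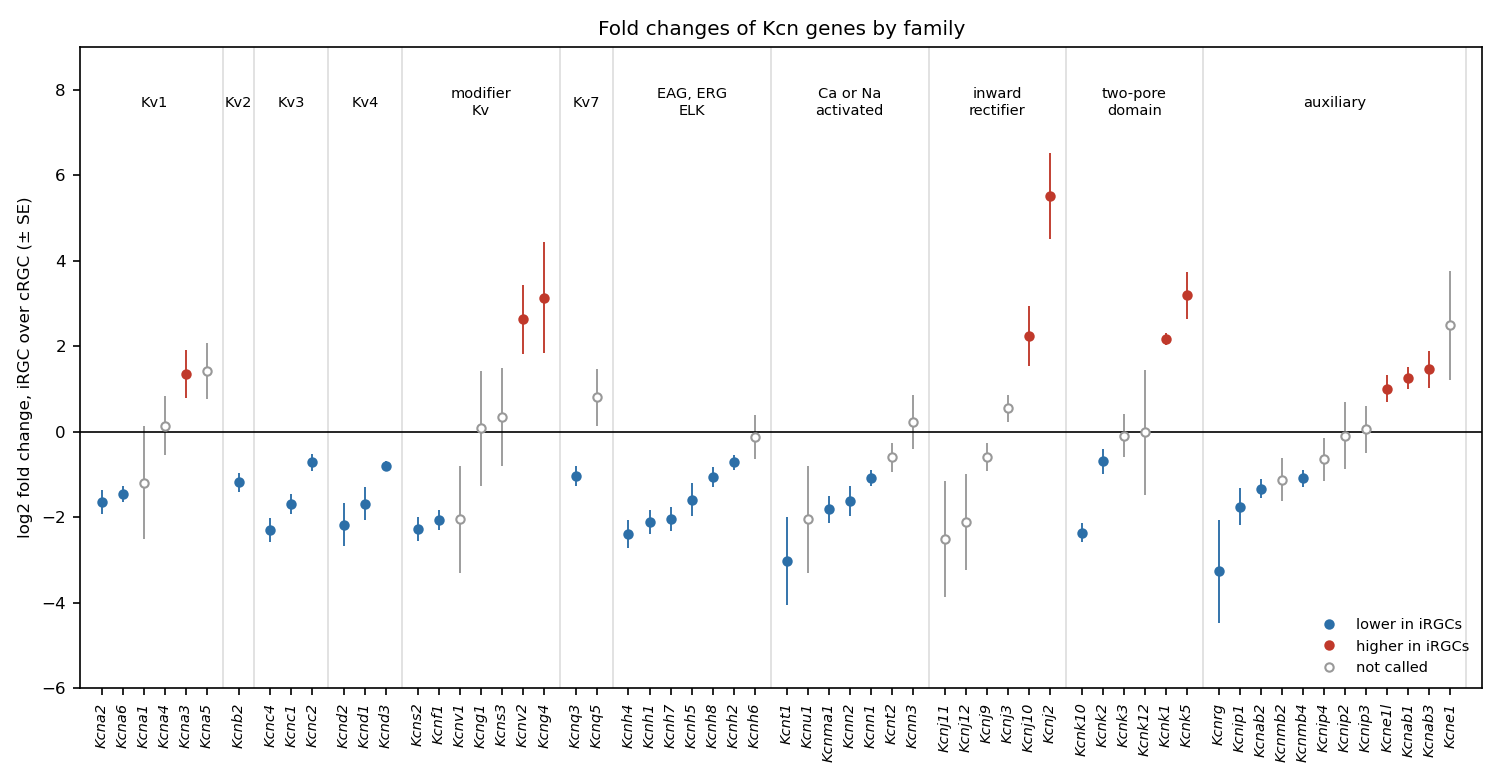
Log2 fold change of 60 of the 64 tested Kcn genes (iRGC over cRGC, edgeR, lines are SE), ordered within families on the x axis, with filled blue points lower, filled red points higher and open grey points not called at an adjusted p under 0.1. All 3 Kv4 points are blue, and no red point appears in the EAG, ERG and ELK group or among calcium- or sodium-activated channels.

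Most of the genes called lower encode voltage-gated channels or their modifier subunits. Of 33 tested genes of these 2 kinds together, iRGCs had less of 22 (66.7%, against 23.1% of all tested genes) and more of 3 (9.09%, against 23.3%), and their summed level was 576 ± 116 against 1554 ± 135 CPM. All 3 Kv4 genes were lower, as were 6 of 7 tested genes of the EAG, ERG and ELK group. The inward rectifiers summed to 33.6 ± 12.6 against 25.1 ± 2.33 CPM, and the libraries of the populations overlapped. K2P leak channels had a higher sum in iRGCs (97.2 ± 4.03 against 69.2 ± 9.32 CPM), without overlap, and this rested on Kcnk1. Without Kcnk1, which was left out after its values were seen, the K2P sum was lower in each iRGC library (32.5, 24.4 and 31.3 CPM) than in any cRGC library (64.8, 50.3 and 47.1 CPM).

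**Figure D2:**
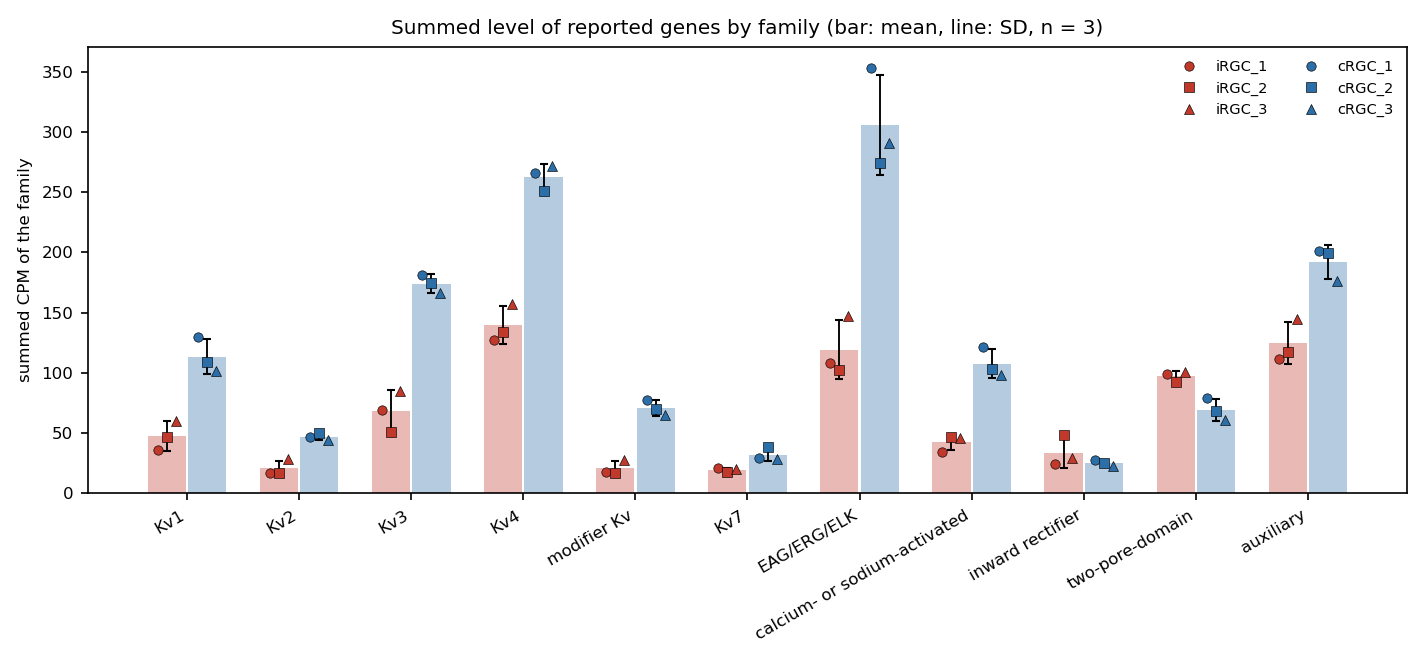
Summed CPM of 90 Kcn genes by family (y axis, linear) in each library, with bars for the mean of 3 libraries and lines for the SD. The EAG, ERG and ELK sum was 119 ± 24.4 in iRGCs against 306 ± 41.7 CPM in cRGCs, while the two-pore-domain sum was higher in each iRGC library than in any cRGC library with Kcnk1 and lower without it.

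Kv7 channels carry the M current, a slow potassium current that restrains repetitive firing. Kcnq3, a subunit of M channels, was at 15.3, 11.0 and 18.1 against 27.0, 37.4 and 26.8 CPM and fell by 1.04 on the log2 scale (adjusted p = 0.00710, edgeR). The populations did not overlap. Kcnq5, which also carries M current, was not called (2.38 ± 0.539 against 1.36 ± 0.735 CPM).

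Kv4 channels give the transient A-type current that delays firing. Kcnd3 (ENSMUSG00000040896, chr3:105452330-105674002, plus strand) was the most abundant Kcn gene of iRGC libraries 1 and 2, with 123, 121 and 142 CPM in iRGCs and 229, 213 and 229 CPM in cRGCs. The populations did not overlap, and the fold change was modest (log2 fold change -0.79 ± 0.11, adjusted p = 0.000552). Kcnd2, a dendritic Kv4 subunit, was at 1.19, 4.73 and 6.18 against 16.9, 18.1 and 20.0 CPM (log2 fold change -2.18 ± 0.50, adjusted p = 0.00780). Kcnd1 was at 2.77, 8.50 and 8.70 against 20.9, 20.7 and 22.6 CPM (-1.69 ± 0.39, adjusted p = 0.00819). Both were lowest in iRGC replicate 1. The level of Kcnd3 relative to Kcnd2, per kilobase of exon, was 55.7, 13.7 and 12.4 in iRGCs against 7.26, 6.32 and 6.16 in cRGCs. Among KChIPs, the calcium-binding subunits that bring Kv4 channels to the membrane, Kcnip1 fell by 1.76 on the log2 scale (3.25, 4.17 and 10.8 against 21.3, 23.1 and 17.2 CPM), and by 2.48 without iRGC replicate 3. Kcnip2 (1.31 ± 0.711 against 1.40 ± 0.204 CPM), Kcnip3 (5.53 ± 3.75 against 5.32 ± 2.25 CPM) and Kcnip4 (3.03 ± 1.51 against 4.73 ± 1.31 CPM) were not called. Of the other Kv4 partners, the dipeptidyl peptidase-like proteins, Dpp10 was at 5.08, 4.73 and 14.3 against 49.8, 44.8 and 20.1 CPM (log2 fold change -2.25, and -2.97 without iRGC replicate 3) and Dpp6 fell by 0.80 (107 ± 12.5 against 185 ± 20.4 CPM).

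Among the EAG, ERG and ELK channels, Kcnh4, an ELK channel (ENSMUSG00000035355, chr11:100740376-100759942, minus strand), had the lowest fold change. It was at 7.04, 10.3 and 17.4 CPM in iRGCs and at 76.2, 55.5 and 51.3 CPM in cRGCs, with no overlap (log2 fold change -2.39 ± 0.32, adjusted p = 0.000547). Kcnh1, an EAG channel, fell by 2.12 (5.83 ± 1.84 against 25.3 ± 4.03 CPM), and the ERG channel Kcnh7 fell by 2.05 (16.4 ± 5.56 against 67.7 ± 18.5 CPM). Kcnh2, the ERG channel best known from cardiac repolarization, was the most abundant of this group in CPM, at 65.3, 52.5 and 77.6 against 103, 90.7 and 128 CPM (-0.72 ± 0.18, adjusted p = 0.0110). Kcnh5 (-1.59) and Kcnh8 (-1.06) were also lower, and Kcnh6 was not called (2.61 ± 0.543 against 2.86 ± 0.988 CPM).

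Kv3 channels allow brief action potentials and fast firing, and Kcnc4 changed most among them, from 22.5, 28.9 and 29.2 CPM in cRGCs to 4.12, 4.61 and 7.57 CPM in iRGCs (log2 fold change -2.31 ± 0.27, adjusted p = 0.000356). Kcnc1 fell by 1.69 (27.9 ± 10.3 against 90.0 ± 6.78 CPM) and Kcnc2 by 0.72. The Kv2 gene Kcnb2 (-1.19) was lower, together with the silent modifier subunits Kcns2 (7.26 ± 2.67 against 35.2 ± 6.50 CPM, log2 fold change -2.28) and Kcnf1 (7.25 ± 2.08 against 30.6 ± 1.80 CPM, -2.08), which assemble with Kv2. Of all 7 tested modifier subunits, 28.6% were lower and 28.6% higher, near the shares of all tested genes (23.1% and 23.3%). Of the 5 besides Kcns2 and Kcnf1, all at low levels, 2 were higher and 3 were not called by edgeR. Kcnv1 was at 0, 0.433 and 1.48 against 2.31, 3.90 and 1.78 CPM (log2 fold change -2.05). It was called lower by limma voom and without iRGC replicate 3 (-3.60). Kcng1 (0.08) turned to -0.79 without iRGC replicate 3 and Kcns3 (0.34) to -0.93 without iRGC replicate 1, neither called. Kcnv2, a subunit known from photoreceptors, was at 2.35, 1.55 and 2.71 against 0.192, 0.414 and 0.452 CPM (2.62 ± 0.81, adjusted p = 0.0305), and its call was lost without iRGC replicate 3. Kcng4 was at 1.13, 1.24 and 0.694 against 0, 0.173 and 0.161 CPM (3.13 ± 1.30, adjusted p = 0.0885), and this call was lost whenever any single library was left out. The photoreceptor precursor markers, which summed to 664, 504 and 501 CPM in iRGCs against 82.0, 159 and 102 CPM, moved the same way as Kcnv2, and their part was not tested.

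Kv1 channels sit in axons and beside nodes. Of 6 tested Kv1 genes, iRGCs had less of 2 (33.3%, against 23.1% of all tested genes) and more of 1 (16.7%, against 23.3%). Kcna1 and Kcna4 were not called in any fit. Kcna5 was not called in the fit reported here (log2 fold change 1.42, adjusted p = 0.121, edgeR). DESeq2, limma voom and other alternatives called it higher. Kcna2 (12.0, 19.4 and 27.2 against 75.6, 54.7 and 54.5 CPM) fell by 1.66 and Kcna6 by 1.45, whereas Kcna3, known also from lymphocytes and microglia, was higher at 4.47, 3.62 and 4.48 against 1.35, 2.69 and 0.871 CPM (1.35 ± 0.56, adjusted p = 0.0891). Kcna3 and Kcna2 lie 63075 bases apart on chromosome 3, and per kilobase of exon the level of Kcna3 relative to Kcna2 was 1.51 ± 0.72 in iRGCs and 0.173 ± 0.117 in cRGCs. The Kcna3 call was lost without any 1 of iRGC replicates 1, 2 and 3 or cRGC replicates 1 and 3. Of Kcna6, 39.6% of the exon length is shared with an overlapping antisense gene that itself had no reads in any library. Among the Kv1 beta subunits, Kcnab2 fell by 1.33 (30.3, 33.1 and 47.1 against 112, 98.6 and 67.3 CPM), while Kcnab1 (22.4, 19.1 and 14.7 against 6.38, 7.32 and 9.78 CPM, log2 fold change 1.26 ± 0.26, adjusted p = 0.00448) and Kcnab3 (9.46 ± 2.95 against 3.45 ± 1.81 CPM, 1.46) were higher. The populations overlapped for none of these 3 subunits. Of the listed genes whose proteins cluster Kv1 channels along axons, Cntn2 was at 319, 374 and 412 against 1764, 1226 and 1455 CPM (-2.01). Cntnap2 was at 57.6, 99.4 and 141 against 233, 255 and 321 CPM (-1.44). Adam22 fell by only 0.44, and its call was lost with library totals alone and without iRGC replicate 2 or cRGC replicate 1. Lgi1 was not called (0.792 ± 0.724 against 1.93 ± 0.253 CPM).

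**Figure D3:**
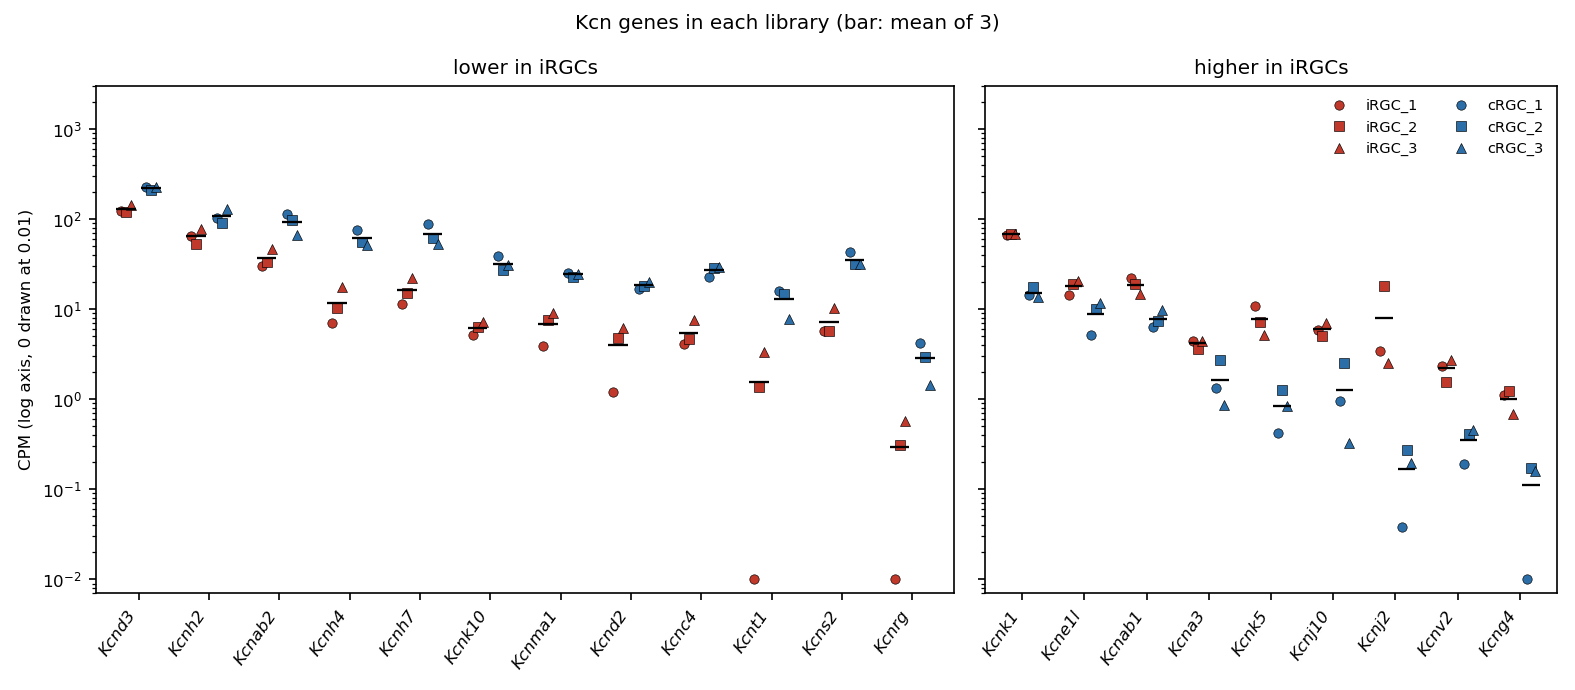
CPM of named Kcn genes in each library (y axis, log scale, values of 0 drawn at 0.01), with red for iRGC and blue for cRGC libraries, one symbol shape per replicate number and bars for the mean of 3. The populations are separate for each gene shown, and the iRGC_3 triangle lies highest of the iRGC points for every gene of the left panel.

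Calcium- and sodium-activated channels couple potassium efflux to activity, and 4 of 7 tested were lower (57.1%, where 23.1% of all tested genes were). Kcnma1, the pore of the BK channel, was at 3.86, 7.60 and 9.08 against 25.3, 23.0 and 24.4 CPM (log2 fold change -1.82 ± 0.30, adjusted p = 0.00161). Its beta subunit Kcnmb4, the neuronal one, fell by 1.09 (18.0 ± 3.72 against 38.5 ± 6.10 CPM), with 31.5% of its exon length shared with antisense genes. Kcnmb2 lay just outside the threshold (2.33 ± 1.18 against 5.08 ± 0.837 CPM, adjusted p = 0.115, edgeR), although the populations did not overlap. It was called lower by DESeq2, by limma voom, with at least 10 counts required in every library and without iRGC replicate 2. BK gamma subunits split, with Lrrc55 at 1.61, 5.75 and 8.73 against 21.3, 20.2 and 27.9 CPM (-2.11) and Lrrc38 at 4.86, 2.91 and 1.26 against 0.0769, 0.276 and 0 CPM (4.63, and 6.24 without cRGC replicate 2). The SK channels Kcnn1 (22.7 ± 4.45 against 48.0 ± 6.78 CPM, -1.08) and Kcnn2 (3.75 ± 1.40 against 11.5 ± 1.94 CPM, -1.62), which carry the afterhyperpolarization, were lower, and Kcnn3 was not called. Kcnt1, a sodium-activated channel, had 0, 1.36 and 3.34 CPM in iRGCs against 16.1, 14.8 and 7.71 CPM in cRGCs (-3.03 ± 1.04, adjusted p = 0.0449), and its relative Kcnt2 was not called (4.37 ± 0.978 against 6.63 ± 0.543 CPM). The Kcnt1 value was -4.23 without iRGC replicate 3, and the call was lost without iRGC replicate 2 (adjusted p = 0.115), cRGC replicate 1 (adjusted p = 0.125) or cRGC replicate 2, and with DESeq2. Kcnrg, which encodes a cytoplasmic regulator rather than a pore, had the lowest fold change of the 64 tested genes (0, 0.309 and 0.568 against 4.19, 2.93 and 1.45 CPM, -3.27 ± 1.20, adjusted p = 0.0588), and its call was likewise lost without iRGC replicate 2, cRGC replicate 1 or cRGC replicate 2. Without iRGC replicate 3 its value was -4.17.

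K2P channels, the leak channels that set the resting potential, had members that moved in opposite directions. Kcnk1 (ENSMUSG00000033998, chr8:125995170-126030685, plus strand) was at 66.0, 68.2 and 69.0 CPM in iRGCs and at 14.3, 17.6 and 13.5 CPM in cRGCs. The iRGC libraries lay within 3 CPM of each other and far above the cRGC libraries (4.47-fold, log2 fold change 2.16 ± 0.15, adjusted p = 0.000201). Kcnk10, a mechanically and lipid-gated K2P channel (ENSMUSG00000033854, chr12:98429437-98578310, minus strand), had the reverse pattern with 5.11, 6.27 and 7.25 against 38.5, 26.9 and 30.6 CPM (-2.36 ± 0.22, adjusted p = 0.000207). Per kilobase of exon, the level of Kcnk1 relative to Kcnk10 was 50.7, 42.6 and 37.3 in the iRGC libraries and 1.46, 2.57 and 1.74 in the cRGC libraries. Kcnk5, an acid-sensitive K2P channel of epithelia (ENSMUSG00000023243, chr14:20140057-20181809, minus strand), was at 10.8, 7.26 and 5.17 against 0.423, 1.28 and 0.839 CPM (3.19 ± 0.55, adjusted p = 0.00179). Kcnk2, a relative of Kcnk10, lay just inside the threshold (9.15 ± 2.95 against 14.9 ± 2.60 CPM, -0.70 ± 0.29, adjusted p = 0.0919), and its call was lost when any library but iRGC replicate 1 was left out. Kcnk3 and Kcnk12 were not called.

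The promoters of Kcnh4, the ELK channel that fell, and of Kcnk1 and Kcnk5, the K2P channels that rose, are shown because these genes changed in opposite directions. Windows of 300 bases around RefSeq gene starts (GRCm38.p6) were found for 69 of the 94 genes, and for Kcnt1, Kcns2 and others none was used. They were searched on both strands for the Sp1 box GGGCGG, the TATA box TATAAA, TCAGCACC, the left part of the RE1 element bound by the neuronal gene repressor REST, and ATAATTAAT, a site of Brn3 factors, and no motif contains another. The windows below are printed on the strand of the gene, with each GGGCGG in capitals, for Kcnh4 at chr11:100759729-100760028 (minus strand), Kcnk1 at chr8:125994852-125995151 (plus strand) and Kcnk5 at chr14:20181733-20182032 (minus strand).
Kcnh4: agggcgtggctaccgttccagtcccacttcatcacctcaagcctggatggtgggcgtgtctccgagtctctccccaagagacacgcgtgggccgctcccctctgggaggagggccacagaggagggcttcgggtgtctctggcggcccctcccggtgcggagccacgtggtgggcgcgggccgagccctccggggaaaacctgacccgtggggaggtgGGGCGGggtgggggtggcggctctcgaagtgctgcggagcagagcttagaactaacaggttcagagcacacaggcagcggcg
Kcnk1: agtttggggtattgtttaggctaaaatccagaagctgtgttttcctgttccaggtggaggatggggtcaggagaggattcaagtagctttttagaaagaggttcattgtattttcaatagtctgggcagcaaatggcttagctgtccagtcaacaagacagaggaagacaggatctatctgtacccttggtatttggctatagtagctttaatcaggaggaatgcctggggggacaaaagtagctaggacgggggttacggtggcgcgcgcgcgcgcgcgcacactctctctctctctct
Kcnk5: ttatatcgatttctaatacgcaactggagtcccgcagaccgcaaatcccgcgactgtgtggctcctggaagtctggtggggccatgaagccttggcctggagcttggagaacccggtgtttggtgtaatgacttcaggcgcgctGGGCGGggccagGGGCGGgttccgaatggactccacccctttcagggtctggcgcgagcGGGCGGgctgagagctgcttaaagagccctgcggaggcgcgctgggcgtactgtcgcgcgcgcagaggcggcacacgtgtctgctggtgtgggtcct
Kcnh4 holds 1 Sp1 box among 23 CG dinucleotides, Kcnk5 holds 3 among 26, and Kcnk1 holds none and has only 10 CG dinucleotides, most of them in a run of alternating c and g toward the 3′ end of the window. The Kcnk1 window was placed on a RefSeq start and ends before the GENCODE start of the gene given above. None of the 3 windows holds another of the motifs. Over all 32851 windows of the table, 35.7% held GGGCGG, 13.6% TATAAA, 1.65% TCAGCACC and 0.274% ATAATTAAT. Of the 34 windows of genes lower in iRGCs, 52.9% held GGGCGG and none held the other motifs, and of the 10 windows of genes higher in iRGCs, 60.0% held GGGCGG and 10.0% TATAAA. Windows of 1 gene can share bases, and a match is a description of letters and not a site.

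Inward rectifiers pass potassium into the cell more easily than out. With edgeR, 2 of 6 tested were higher (33.3%, where 23.3% of all tested genes were) and none lower. Kcnj12 was at 0, 0.989 and 2.81 against 4.84, 4.31 and 7.36 CPM without overlap (log2 fold change -2.12, adjusted p = 0.176, edgeR). It was called lower by DESeq2, by limma voom, and without iRGC replicate 1 or iRGC replicate 3 (-3.47). DESeq2 also called Kcnj11 lower, and Kcnj9 was called lower without iRGC replicate 1. Kcnj10, the channel of glial potassium buffering, was at 5.82, 5.07 and 7.06 against 0.961, 2.52 and 0.323 CPM (log2 fold change 2.24 ± 0.70, adjusted p = 0.0313). Its value was 3.24 without cRGC replicate 2, and its call was lost without cRGC replicate 1. Kcnj2, which sets the resting potential in muscle and endothelium (ENSMUSG00000041695, chr11:111066164-111076821, plus strand), had the highest fold change of the 64 tested Kcn genes at 3.41, 18.1 and 2.55 against 0.0384, 0.276 and 0.194 CPM (5.51 ± 1.01, adjusted p = 0.00247). Without iRGC replicate 2 the log2 fold change was 4.09 (adjusted p = 0.0222), and limma voom did not call it. Kcnj3 (8.65 ± 2.15 against 5.93 ± 1.03 CPM) and Kcnj9 (6.35 ± 1.53 against 9.57 ± 2.80 CPM), subunits of G protein-gated channels, were not called in the edgeR fit reported here. Of the exon length of Kcnj3, 31.1% is shared with a noncoding gene. KATP channels, which close on ATP, pair a Kcnj pore with a sulfonylurea receptor. The neuronal pore Kcnj11 was at 0, 0.216 and 0.441 against 1.58, 1.76 and 0.484 CPM and its receptor Abcc8 at 3.28, 0.896 and 3.37 against 2.15, 1.90 and 1.23 CPM. Neither was called with edgeR, while Kcnj11 was called lower with DESeq2 (adjusted p = 0.0987). The vascular pore Kcnj8 and its receptor Abcc9 had too few reads outside iRGC replicate 2 to be tested, with Kcnj8 at 0, 3.18 and 0.0315 CPM and Abcc9 at 0.386, 26.0 and 0.221 CPM in iRGCs. In cRGCs Kcnj8 had no read and Abcc9 at most 0.276 CPM, and a count of 0 allows a level of up to 0.0968 to 0.115 CPM in these libraries (3 counts), for counting error only. Of the 30 genes not tested, 7 were highest in iRGC replicate 2, namely Kcnj8, Kcne4, Kcnk6, Kcnj15 (0, 2.47 and 0 CPM), Kcnq1 (2.54, 3.89 and 0.126 CPM), Kcne3 (2.35, 3.09 and 0 CPM) and Kcnj13, a channel of the pigment epithelium (0, 1.33 and 0.441 CPM, with 49.1% of its exon length shared with Gigyf2). For Kcnj15, Kcnq1, Kcne3 and Kcnj13 the cRGC libraries had at most 0.308 CPM. Another 8 of the genes not tested were highest in iRGC replicate 3 and 7 in a cRGC library. The endothelial markers summed to 459, 635 and 431 CPM in iRGCs against 86.5, 107 and 70.4 CPM, most of it Kdr, which is also made by retinal progenitors and was not highest in iRGC replicate 2 (366, 320 and 418 CPM). The mural markers summed to 135, 247 and 108 against 20.8, 30.9 and 22.8 CPM, with Notch3 the most abundant (113, 117 and 83.5 CPM in iRGCs) and Rgs5 next to it in iRGC replicate 2. The part of vascular cells in the levels of Kcnj2, Kcnj8, Kcnj15, Kcnq1 and Kcne3 was not tested.

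**Figure D4:**
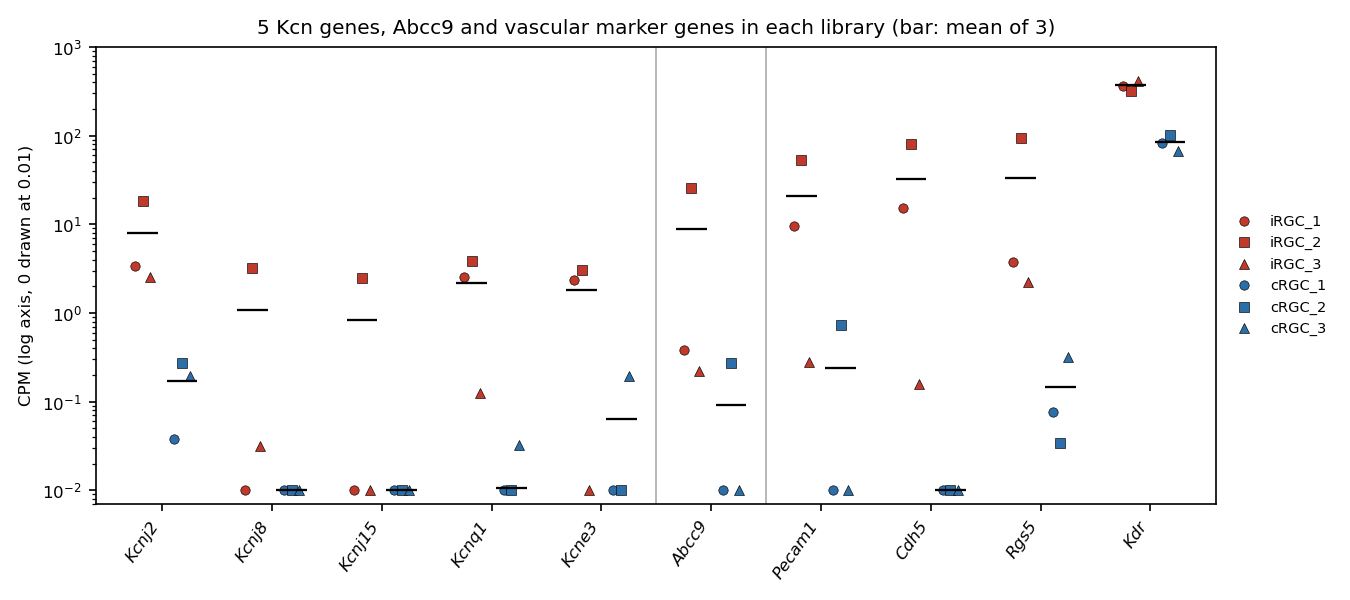
CPM (y axis, log scale, values of 0 drawn at 0.01) of Kcnj2, Kcnj8, Kcnj15, Kcnq1, Kcne3, the receptor gene Abcc9 and the markers Pecam1, Cdh5, Rgs5 and Kdr in each library, with bars for the mean of 3. The iRGC_2 square is the highest point for each gene but Kdr, and iRGC_1 and iRGC_3 fall well below it for Kcnj8, Abcc9, Cdh5 and Rgs5. Kcnj15, Kcnq1 and Kcne3 were chosen after their values were seen, so this shared order is no test. Of the 30 Kcn genes not tested, 8 were highest in iRGC_3 and 7 in a cRGC library, and none of these is drawn. The markers Cldn5, Anpep and Acta2, not highest in iRGC_2, are not drawn either.

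Of 17 auxiliary genes, the regulator Kcnrg among them, 12 were tested, 4 were lower (33.3%, against 23.1% of all tested genes) and 3 higher (25%, against 23.3%), shares near those of all tested genes. Besides the Kcnab, Kcnip and Kcnmb genes described above, Kcne1l, a single-span subunit of the Kcne family, was higher at 14.5, 18.9 and 20.3 against 5.15, 10.1 and 11.6 CPM (log2 fold change 1.00 ± 0.32, adjusted p = 0.0326). Kcne1 was at 2.03, 0.927 and 1.86 against 0, 0.587 and 0.258 CPM and was not called with edgeR, while DESeq2 called it higher.

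On the scale of CPM per kilobase of exon, which allows levels of genes to be compared, Kcnk1 lay above the abundant voltage-gated genes in iRGCs but not in cRGCs. In cRGCs Kcnk1 was at 6.77 ± 0.981, below Kcnd3 at 23.3 ± 0.970, Kcnh2 at 22.2 ± 3.94, Kcnab2 at 16.6 ± 4.15 and Kcnh4 at 15.4 ± 3.36. The spread of Kcnh2 overlapped those of Kcnd3, Kcnab2 and Kcnh4, and the spreads of Kcnab2 and Kcnh4 overlapped as well. In iRGCs Kcnk1 came first at 30.3 ± 0.683, then Kcnh2 at 13.4 ± 2.60, Kcnd3 at 13.4 ± 1.23 and Kcne1l at 11.6 ± 1.98. Kcnh2, Kcnd3 and Kcne1l did not differ beyond their spreads, and the exon length used was the union of all annotated exons, which understates genes with long alternative exons.

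**Figure D5:**
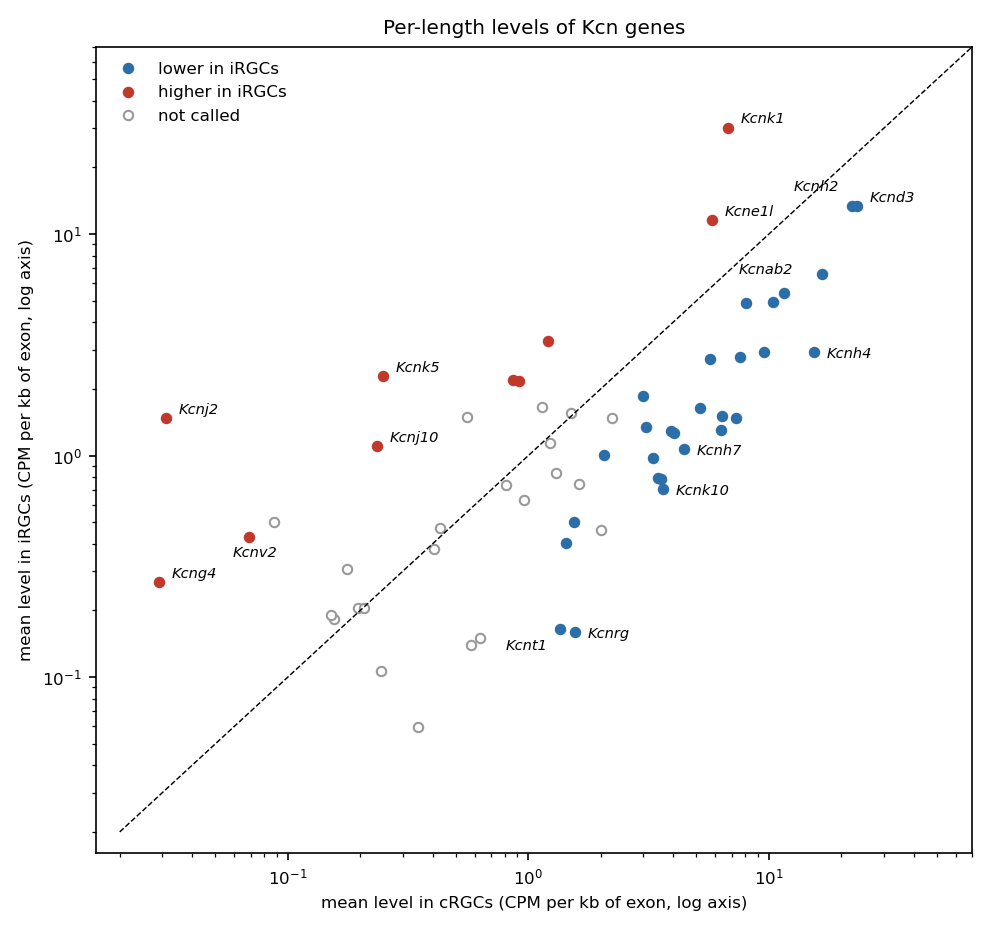
Mean level of 60 tested Kcn genes in cRGCs (x axis) and iRGCs (y axis) in CPM per kilobase of exon, both on log scales, with the dashed line at equal levels. Kcnk1 is the highest point on the iRGC axis at 30.3, against 6.77 on the cRGC axis.

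The order of libraries within a population followed the marker sums in part. Of the 32 genes lower in iRGCs, 28 were highest among the iRGC libraries in replicate 3, which also had the highest sum of ganglion cell markers, and 23 were lowest in replicate 1, which had the lowest. Among the cRGC libraries the order was different, since 18 of the 32 were highest in replicate 1 and 16 were lowest in replicate 3, although replicate 3 had the highest ganglion cell marker sum. Of the 10 genes higher in iRGCs, 6 were highest among the cRGC libraries in replicate 2, which had the highest sum of progenitor markers of the 3. Among the iRGC libraries 3, 2 and 5 of the 10 were highest in replicates 1, 2 and 3, while the progenitor sum was highest in replicate 1. These orders were counted for Kcn genes alone, and whether other genes called lower or higher share them was not tested. Set against the ganglion cell markers, whose median log2 fold change was -1.93, 12 of the 32 lower genes had a more negative value (among them Kcnc4, Kcnd2, Kcnf1, Kcnh1, Kcnh4, Kcnh7, Kcnk10, Kcnrg, Kcns2 and Kcnt1) and 20 a less negative one. The Kcn sum was 31.8%, 25.5% and 20.2% of the ganglion cell marker sum in iRGCs and 16.4%, 15.8% and 13.0% of it in cRGCs. Of the 10 higher genes, 4 (Kcnj2, Kcnk5, Kcng4 and Kcnv2) lay above the progenitor marker median of 2.56. How far the mix of cells sets these values was not tested.

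The genes lower in iRGCs were long, with a median exon length of 5970 bases and a median span of 73.4 kb, against 3605 bases and 13.2 kb for the genes higher and 3707 bases and 42.8 kb for those not called. Over all tested genes the medians were 5211 bases and 33.4 kb for lower, 4693 bases and 26.2 kb for higher and 3534 bases and 15.3 kb for genes not called.

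Listed genes that work beside potassium channels without a Kcn symbol were more often lower than higher, chiefly the channel partners and HCN genes. Of 37 listed partner and transport genes 32 were tested, and 16 were lower (50.0%, against 23.1% of all tested genes) and 5 higher (15.6%, against 23.3%). These included 8 of 11 tested channel partners and 3 of 4 HCN genes (hyperpolarization-activated channels) among the lower. Of 12 tested genes of the sodium-potassium pump, 4 were lower, 2 higher and 6 not called (median log2 fold change -0.25). Of 5 tested cotransporters, 1 was lower, 2 higher and 2 not called (median 0.13). Fxyd7, a brain regulator of the pump with the lowest value of the pump genes, was at 4.57, 1.70 and 5.93 against 17.8, 20.6 and 21.3 CPM (-2.29). Among cotransporters, the neuronal chloride extruder Slc12a5 fell by 1.37, the housekeeping potassium-chloride cotransporter Slc12a4 was higher (15.0, 12.6 and 12.1 against 1.58, 3.00 and 2.39 CPM, 2.51), and the chloride importer Slc12a2 was higher by 0.51 on the log2 scale. None of the libraries overlapped between populations for these 4 genes.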

How the data were processed

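The RNA-seq part of the series was used, with 3 iRGC and 3 cRGC libraries of sorted cells. The other 13 samples of the series, all ATAC-seq, were not analysed here. The authors aligned reads to mm10 with HISAT2 2.1.0 and, with HTSeq 0.11.1, deposited raw counts per Ensembl gene of GRCm38, 1 table per library. Whether strand was used is not given in the sources used here, so reads of overlapping genes on opposite strands may have been set aside or mixed. Reads on no gene were 12.3% to 23.2% of uniquely aligned reads and stayed out of library sizes and tests. Symbols, positions and exon lengths came from GENCODE M21 (GRCm38) for 46574 rows, and the Kcn genes were picked from them by symbol and biotype.

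Differences were tested on the counts with edgeR 4.0.16 under R 4.3.3 (filterByExpr, TMM factors 1.03 to 1.10 in iRGCs and 0.921 to 0.952 in cRGCs, quasi-likelihood test, no covariate), called at a Benjamini-Hochberg adjusted p under 0.1 over 15941 genes, as the false discovery rate of the study. CPM values are TMM-scaled, and CPM per kilobase divides them by the union of exons. The biological coefficient of variation was 36.3%. Alternatives were DESeq2 1.42.0, limma 3.58.1 voom, other scalings and filters, a replicate block and leaving out each library. The gene list, the partner and marker lists and the families were chosen with earlier results of these data known. Genes named are the 9 called with the highest and the 9 with the lowest fold change at 1 CPM or more without overlap, the 5 with the highest level per kilobase, the 4 most abundant not called, those nearest the threshold, fixed genes (Kv4, KChIP, M current, KATP, Kcnj10, Kcnj13), the 3 partners at either end, the most abundant marker of each list, and 5 label checks. All others were named after their values were seen. Some genes, 4 of them Kcn genes, are not reported here by name, but stay in the totals. Promoter windows came from RefSeq (GRCm38.p6).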

Additional observations from a re-analysis of the deposited data

How the results depend on the processing

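The counts of potassium channel genes called higher (8 to 13) and lower (28 to 36) stayed within 1.5 times those reported under every scaling, tool, filter and threshold tried. Leaving out 1 library at a time gave 8 to 11 higher and 28 to 34 lower. Scaling by library totals alone moved the median log2 fold change of all tested genes from -0.00 to 0.20, and that of the Kcn genes from -1.07 to -0.87. Without the filter on low counts the Kcn median was -0.70, and it ranged from -1.11 to -0.79 when 1 library was left out, the latter without cRGC replicate 1. Partner and transport genes called higher numbered 8 with library totals alone and 3 with an absolute log2 fold change above 1 as well. Without the filter, Kcne2, Kcne3, Kcnj15, Kcnj8 and Kcnq1, which had most of their reads in 1 or 2 iRGC libraries, were added to the genes called higher, and the calls of Kcna3, Kcng4 and Kcnk2 were lost. Kcnip3 and Kcnip2, not called in any fit, changed sign. Kcnip3 was -0.073 with limma voom, -0.032 with the replicate block and -0.66 to 0.35 with 1 library left out, and Kcnip2 was 0.10 with library totals alone and -0.40 to 0.29 with 1 library left out. The cause was not tested. Of 624 comparisons of named genes with an alternative, 574 kept direction and side of the threshold, 34 lost the call and 8 gained one. The labels number the replicates in both populations, but libraries with the same number did not deviate together (correlations -0.068, 0.002 and -0.099 over 13170 genes). Correlations between libraries with different numbers ran from -0.041 to 0.115. The counts thus show no pairing by number, but they cannot tell whether libraries with the same number were collected or prepared together. With the number as a block, 31 Kcn genes were lower and 8 higher, and the calls of Kcna3, Kcng4 and Kcnrg were lost. With 3 libraries per population an exact permutation test cannot go below p = 0.1, and genes under about 1 CPM rest on few reads.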

Other observations

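Noncoding genes named for or overlapping Kcn genes were read as well. Kcnq1ot1, the long antisense RNA that silences the imprinted domain around Kcnq1 on the paternal chromosome, was at 133, 125 and 35.7 CPM in the iRGC libraries and at 131, 97.9 and 101 CPM in the cRGC libraries (log2 fold change -0.17 ± 0.40, not called), with iRGC replicate 3 below the other 5 libraries. Kcnq1 itself was at 2.54, 3.89 and 0.126 CPM in iRGCs and at most 0.0323 CPM in cRGCs. The lincRNA Gm26794, which overlaps Kcnj3, was at 5.08, 4.67 and 1.77 against 1.88, 0.794 and 1.45 CPM (log2 fold change 1.48 ± 0.63), and was chosen after its values were seen. It was called higher (adjusted p = 0.0958, edgeR), although the populations overlapped. This call was lost with limma voom, without the filter, with the replicate block and when any library but iRGC replicate 3 was left out. Kcnmb4os2, antisense to Kcnmb4, was at 1.83, 4.39 and 3.37 against 4.23, 4.56 and 7.91 CPM (-0.80 ± 0.47) and was not called.

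Of the 30 Kcn genes without enough reads for a test, 6 had no read in any library (Kcna7, Kcna10, Kcnj1, Kcnk15, Kcnk16 and Kcnk18). The others were highest in iRGC replicate 1 for 2 genes, in iRGC replicate 2 for 7, in iRGC replicate 3 for 8 and in a cRGC library for 7. Kcne2 had 84 reads (2.65 CPM) in iRGC replicate 3 and none in the other 5 libraries, and Kcnj15 had 80 reads in iRGC replicate 2 and none elsewhere. The number of Kcn genes with at least 1 read was 62, 75 and 83 in the iRGC libraries and 73 in each cRGC library, while the library with 83 also had the highest number of genes with a read (20283).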
